A study of Mus with 6 samples.

Results

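The mRNA levels of 8 genes were followed through the first 6 h after lens fiber cell removal: Sox9 and 7 further transcription factor genes tied to epithelial to mesenchymal transition (EMT), namely Snai1, Snai2, Zeb1, Zeb2, Twist1, Nfatc1 and Zfp703. They were chosen by name, as 8 of the 55421 genes with a row in the count tables, and all 8 were found there by Ensembl identifier. The libraries came from lens epithelial cells (LECs) of wildtype C57BL/6 mice, left attached to the lens capsule after the fiber cell mass was taken out through an anterior incision, a model of cataract surgery. Capsules were collected either at once (0 h post cataract surgery, PCS) or 6 h later, and RNAseq was performed on 3 pools of 5 capsules per time point. No agent was given and no allele was altered in either group. The labels put the age of the mice at 2 months, whereas the methods give 3 to 5 months and both sexes. A lens capsule can carry cells of neighbouring tissues, and the eye operated first belongs to an animal that was operated again 6 h later, so both time points can share mice. The question addressed is which of the EMT regulators had already changed at the mRNA level by 6 h PCS.

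EMT is the process by which epithelial cells loosen their junctions, lose polarity and acquire a migratory, matrix-producing state. In the lens it is one route by which LECs left behind after surgery turn into the myofibroblasts of posterior capsular opacification. The core regulators are DNA-binding repressors. The Snail proteins (Snai1, Snai2) and the ZEB proteins (Zeb1, Zeb2) bind E-box sequences through zinc fingers and repress epithelial genes such as the E-cadherin gene, and Twist1 is a basic helix-loop-helix factor that acts alongside them. Sox9 carries an HMG-box DNA-binding domain, drives cartilage formation and is expressed in progenitor cells of many epithelia. Nfatc1 is held in the cytoplasm by phosphorylation and enters the nucleus when the calcium-dependent phosphatase calcineurin acts on it, and it is known from heart valves and osteoclasts. Zfp703 encodes a zinc finger corepressor that works with Groucho family proteins.

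The depth on genes ran from 18039974 to 24701039 read pairs per library. Levels below are counts per 1000000 gene counts after TMM scaling (CPM), and differentially expressed genes (DEGs) are those with an FDR (Benjamini-Hochberg adjusted p over the 16810 tested genes) not above 0.05 and a fold change above 2 in edgeR's quasi-likelihood test. A permutation test of 3 libraries against 3 cannot go below a two-sided p of 0.1, so adjusted p-values come from this fit across all genes. They weigh a change against the spread between these pools, estimated with information shared across genes, and treat the pools as independent. Of 12 lens epithelium markers 7 could be identified, Pax6 and Prox1 among them, and their summed level was 1436 to 1662 CPM at 0 h PCS and 1083 to 1341 CPM at 6 h PCS, so RNA of the labelled cell type was present at both times, at sums that did not overlap. Among the 7, Prox1, Pitx3 and Mab21l1 fell by less than the fold limit (log2 fold changes −0.75, −0.86 and −0.53, adjusted p = 0.0119, 0.00777 and 0.0316 from edgeR), and the ephrin receptor gene Epha2 was an upregulated DEG (1.21). With library size scaling Prox1 and Pitx3 were downregulated DEGs (−1.07 and −1.16) and Epha2 was not a DEG (0.91).

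Sox9, Nfatc1 and Zfp703 were upregulated DEGs at 6 h PCS, while Snai1, Snai2, Zeb1 and Zeb2 were tested and not called. Twist1 had too few counts to be tested. Thus 3 of the 7 tested members were upregulated DEGs and 0 were downregulated DEGs, where 4.53% of all tested genes were called upward and 0.821% downward. Without the fold limit the members' count was again 3 of 7, all upward, against 8.33% of all tested genes in either direction and 6.31% upward. In 5 of the 7 tested members (Sox9, Nfatc1, Zfp703, Snai1 and Zeb2) the 3 libraries at 6 h PCS all lay above the 3 at 0 h PCS, which was the case for 15.3% of all tested genes. As the genes were picked with earlier results of these data known, these shares describe the members and are not evidence for a group effect. In bulk RNA, a change in the number of cells of one type cannot be told apart from a change in RNA per cell.

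**Figure D1:**
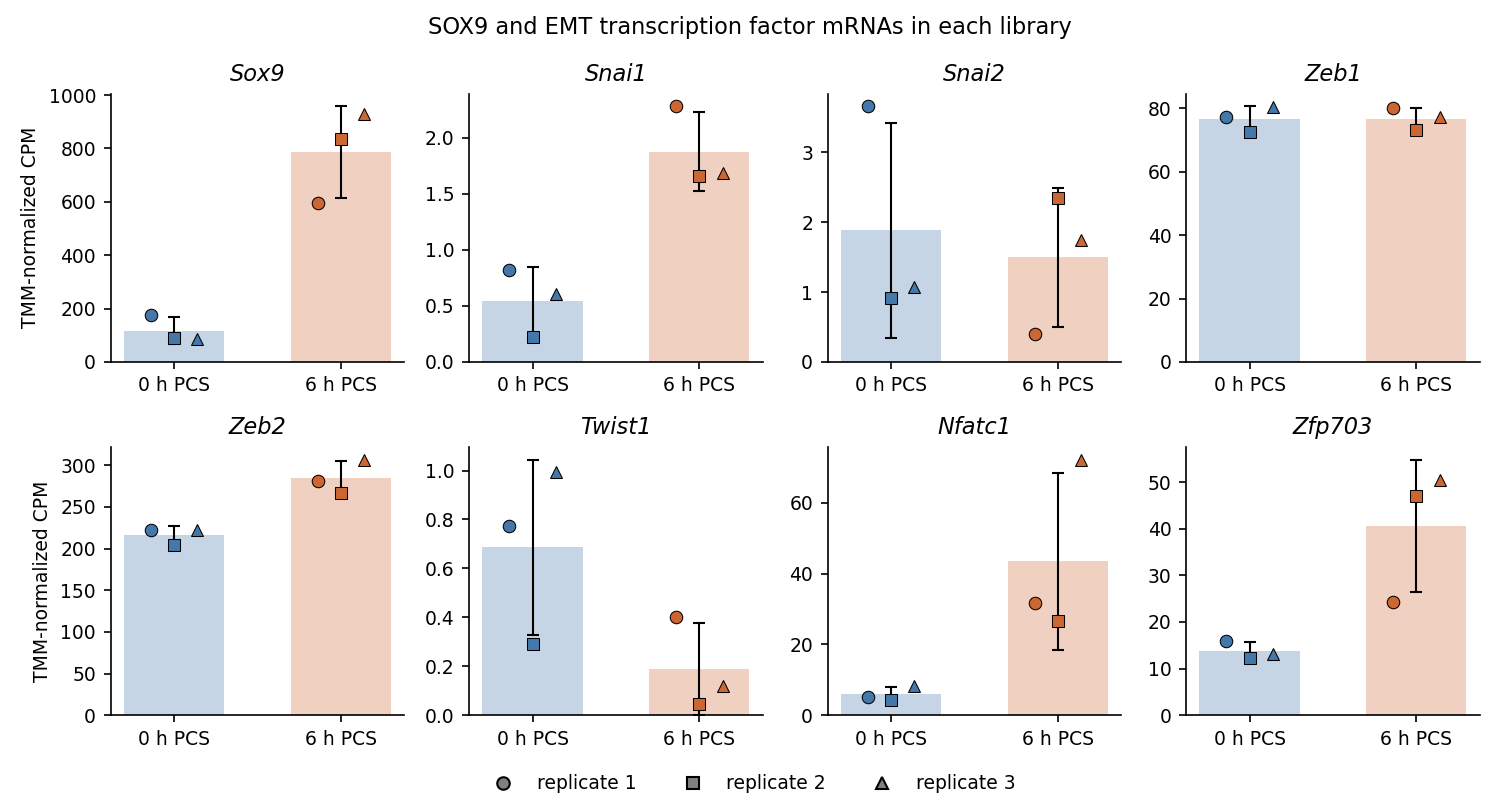
TMM-normalized CPM (linear axis from 0, own scale per gene) of the 8 genes, with 1 point per library, bars for the group mean and error bars for the SD of 3 libraries. Sox9, Nfatc1, Zfp703, Snai1 and Zeb2 show no overlap between 0 h and 6 h PCS, while Snai2, Zeb1 and Twist1 do overlap.

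Sox9 (ENSMUSG00000000567, chromosome 11 of GRCm38, 112782210 to 112787757) was the most abundant of the members whose level could be set per length. Its libraries were at 176, 91.3 and 84.0 CPM at 0 h PCS and at 596, 834 and 929 CPM at 6 h PCS. The lowest library at 6 h PCS was thus still far above the highest at 0 h PCS, which was 0 h replicate 1. The group means were 117 ± 50.9 and 786 ± 172 CPM (SD, n = 3), and the fit gave a 6.72-fold increase (log2 fold change 2.75, standard error 0.317, 95% interval 2.02 to 3.48, adjusted p = 0.00187 from edgeR). Sox9 was a DEG in all 6 fits that left out 1 library each (log2 fold changes 2.55 to 3.16). It was the single member that also passed a test against a fold change of 2 (adjusted p = 0.0122, edgeR's glmTreat). Without 0 h replicate 1, the adjusted p from edgeR was 0.000646.

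Related genes were counted from lists. Symbols were at hand for 6367 of the tested genes, and because many of these come from tables sorted by p-value, 13.7% of them were DEGs (11.6% upward and 2.1% downward) against 5.35% of all tested genes, and their median log2 fold change was 0.19. The count of each list stands against these shares, and 1 DEG of 6 or 7 genes is near them. Of 14 listed SOX genes, 7 had an identifier at hand and were tested, and 1, Sox11, was an upregulated DEG, while these 7 had a median log2 fold change of −0.30. Sox11, a SoxC factor of developing neural and mesenchymal tissue, had 0.947, 1.17 and 1.73 CPM at 0 h PCS and 4.50, 6.39 and 27.0 CPM at 6 h PCS (log2 fold change 3.30, standard error 0.729, adjusted p = 0.0344 from edgeR). It was a DEG in 3 of the 6 fits without 1 library, and its level in 6 h replicate 3 stood well above the other libraries of its group. Sox1 and Sox2, which belong to the SoxB group that is active in early lens development, fell at 6 h PCS by less than the fold limit. Sox1 was at 70.9, 69.0 and 89.9 CPM and then at 47.7, 37.9 and 56.5 CPM (log2 fold change −0.69, adjusted p = 0.0428 from edgeR). Scaled on library size alone, Sox1 and Sox2 were downregulated DEGs, with log2 fold changes of −1.02 each.

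Genes that Sox9 drives in cartilage were also listed. Of the 15, 8 were tested, and 0 were DEGs by edgeR's quasi-likelihood test, by DESeq2 or by edgeR's exact test, although 3 had an unadjusted p under 0.05. Their median log2 fold change was 0.31, compared with 0.19 over the tested genes with a symbol. Col2a1, which encodes the chain of type II collagen, was at 88.2 ± 22.9 and 123 ± 10.2 CPM (SD, n = 3), which was not called (log2 fold change 0.48, adjusted p = 0.147 from edgeR). Prelp, a matrix proteoglycan gene, was at 95.1 ± 30.5 and 121 ± 8.67 CPM (SD, n = 3), so the means lay closer together than the SD at 0 h PCS.

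Nfatc1 (ENSMUSG00000033016, chromosome 18, 80606205 to 80713071) started from a low level, and its fitted fold change was close to that of Sox9. At 0 h PCS it was at 5.25, 4.30 and 8.20 CPM, and at 6 h PCS at 31.6, 26.6 and 72.2 CPM. All libraries at 6 h PCS exceeded those at 0 h PCS, and 6 h replicate 3 stood well above the others. The means were 5.92 ± 2.03 and 43.5 ± 25.0 CPM (SD, n = 3), and the fit gave a 7.35-fold increase (log2 fold change 2.88, standard error 0.446, 95% interval 1.83 to 3.92, adjusted p = 0.00945 from edgeR). The intervals of Nfatc1 and Sox9 overlap widely, and the ratio of their counts did not separate the time points. Nfatc1 stayed a DEG without 6 h replicate 3 (log2 fold change 2.30, adjusted p = 0.00192 from edgeR), but missed the FDR limit without 0 h replicate 1 (log2 fold change 2.80, adjusted p = 0.0544) and in the test against a fold change of 2 (adjusted p = 0.0546, glmTreat).

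Of 16 listed genes of the NFAT family and the calcineurin pathway, 6 were tested and 1 was an upregulated DEG (2 DEGs by DESeq2 and by edgeR's exact test). This was Nfatc2, another calcineurin-regulated member of the family, at 7.96, 8.93 and 20.3 CPM at 0 h PCS and 37.1, 58.4 and 91.9 CPM at 6 h PCS (log2 fold change 2.33, standard error 0.492, adjusted p = 0.0398 from edgeR). The groups did not overlap, but Nfatc2 was a DEG in 2 of the 6 fits without 1 library. Rcan1, which encodes an inhibitor of calcineurin and is itself an NFAT target, was at 126, 77.2 and 62.4 CPM and then at 193, 197 and 420 CPM. It did not pass the FDR limit (log2 fold change 1.61, adjusted p = 0.0605 from edgeR), though its libraries were separated by time point. Dyrk1a, a kinase that phosphorylates NFAT proteins, rose by less than the fold limit (log2 fold change 0.50, adjusted p = 0.0484 from edgeR). With library size scaling it also missed the FDR limit (0.20, adjusted p = 0.435 from edgeR). As with Nfatc1, the highest library of Nfatc2 and of Rcan1 was 6 h replicate 3.

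That library also held the most RNA of pigment cells, whose markers sit in the iris and ciliary body next to the lens. The 4 identified pigment markers of 7 listed (Tyr, Tyrp1, Dct, Pmel) summed to 51.4 to 209 CPM at 0 h PCS and to 77.4, 456 and 1965 CPM at 6 h PCS, and none of the 4 was at 0 in all libraries. The call for Nfatc1 without this library is given above, and the part of pigment cells in its level was not tested.

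Zfp703 (ENSMUSG00000085795, chromosome 8, 26977336 to 26981462) rose less. Its libraries were at 15.9, 12.3 and 13.2 CPM at 0 h PCS and at 24.2, 47.1 and 50.4 CPM at 6 h PCS. The values at 0 h PCS were close together, while 6 h replicate 1 lay nearer to them than to the other libraries at 6 h PCS. Means of 13.8 ± 1.87 and 40.6 ± 14.3 CPM (SD, n = 3) gave a 2.95-fold increase (log2 fold change 1.56, standard error 0.267, 95% interval 0.96 to 2.16, adjusted p = 0.00728 from edgeR). It was a DEG in all 6 fits without 1 library (log2 fold changes 1.38 to 1.82). It was not called against a fold change of 2 (adjusted p = 0.259, glmTreat), nor when 0 h replicate 1 and 6 h replicate 3 were both left out, an alternative added after the values were seen (adjusted p = 0.0675 from edgeR).

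Corepressors and partners of these factors were listed as 22 genes, of which 9 were tested, 2 were upregulated DEGs and 0 were downregulated DEGs. Tle3, a Groucho family corepressor of the kind that Zfp703 works with, was at 88.2, 71.5 and 95.1 CPM and then at 216, 142 and 177 CPM (log2 fold change 1.07, standard error 0.181, adjusted p = 0.00676 from edgeR). Id2, which encodes an inhibitor of basic helix-loop-helix factors, was at 45.7, 43.3 and 41.5 CPM and then at 87.1, 86.0 and 119.5 CPM (log2 fold change 1.17, standard error 0.160, adjusted p = 0.0023 from edgeR). Both lay just past the fold limit, and with library size scaling they fell short of it, at 0.74 and 0.85. Ajuba, which encodes a LIM protein that binds Snail factors, fell by less than the fold limit (43.6, 31.7 and 50.4 CPM, then 25.4, 20.1 and 23.5 CPM, log2 fold change −0.87, adjusted p = 0.025 from edgeR), and with library size scaling it was a downregulated DEG (−1.19) and the single DEG of the list.

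Zeb2 and Zeb1 were expressed at 0 h PCS already and varied little between libraries. Zeb2 (ENSMUSG00000026872, chromosome 2, 44983512 to 45117442) was at 223, 204 and 222 CPM at 0 h PCS and at 281, 267 and 307 CPM at 6 h PCS. The groups did not overlap, yet the log2 fold change was 0.40 (standard error 0.129, 95% interval 0.11 to 0.68), and the adjusted p of 0.0922 from edgeR missed the FDR limit. Its fold of 1.32 is also below the fold limit by a wide margin. Zeb1 (ENSMUSG00000024238, chromosome 18, 5591327 to 5775468) was at 77.4, 72.7 and 80.3 CPM and then at 79.9, 73.2 and 77.2 CPM, with means of 76.8 ± 3.86 and 76.8 ± 3.41 CPM (SD, n = 3). The 95% interval of its log2 fold change, −0.28 to 0.28, leaves room for a change of up to 1.21-fold in either direction. On library size alone the log2 fold changes were 0.08 for Zeb2 and −0.32 for Zeb1, so the sign for Zeb1 and the size for Zeb2 are relative to the TMM scale, on which the median gene is at 0.00 in place of −0.32.

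The ratio of the pair within a library does not depend on scaling. Counts of Zeb2 per count of Zeb1 were 2.88, 2.81 and 2.77 at 0 h PCS and 3.52, 3.65 and 3.98 at 6 h PCS. The ratio was higher in all 3 libraries at 6 h PCS, by 0.40 on the log2 scale, with the two-sided exact permutation p of 0.1 that is the smallest this design allows (adjusted p = 0.15 over 9 ratios of members, an analysis added after the values were seen).

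**Figure D2:**
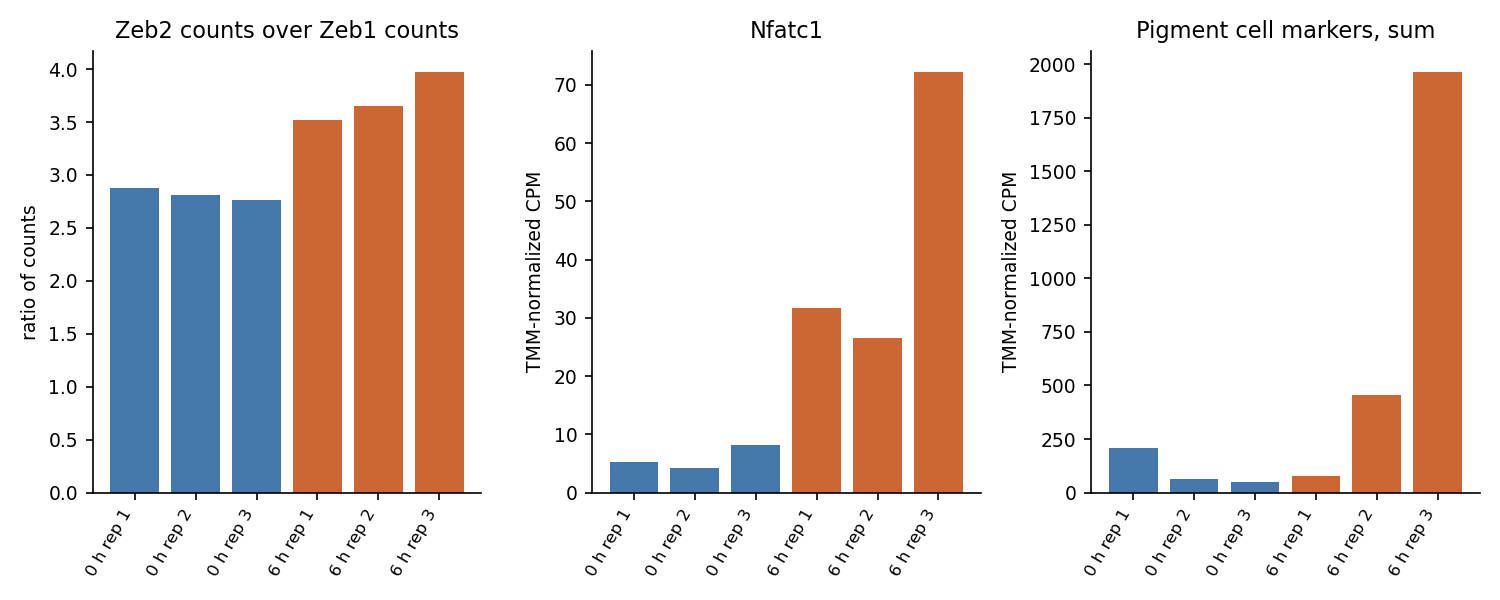
Each bar is 1 library (0 h PCS in blue, 6 h PCS in orange, linear axes from 0): Zeb2 counts divided by Zeb1 counts, the Nfatc1 level in CPM, and the summed CPM of 4 pigment cell markers. The Zeb2 to Zeb1 ratio runs from 2.77 to 2.88 at 0 h PCS and from 3.52 to 3.98 at 6 h PCS, and 6 h replicate 3 is highest for Nfatc1 (72.2 CPM) and for the pigment sum (1965 CPM).

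Snai1 and Snai2 were close to the detection limit. Snai1 (ENSMUSG00000042821, chromosome 2, 167538195 to 167542814) had 19, 6 and 14 counts at 0 h PCS and 34, 37 and 28 counts at 6 h PCS, or 0.817, 0.219 and 0.604 CPM against 2.28, 1.66 and 1.69 CPM. Every library at 6 h PCS was above every library at 0 h PCS. The change did not pass the FDR limit (log2 fold change 1.78, 95% interval 0.28 to 3.27, adjusted p = 0.144 from edgeR), and it was not called in any of the 6 fits without 1 library nor under the 10 other settings tried. The gene reached the low-count filter in 3 libraries at 6 h PCS and 2 at 0 h PCS, so it was tested because of the group in which it is higher.

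Snai2 (ENSMUSG00000022676, chromosome 16, 14705852 to 14709395) had 85, 25 and 25 counts at 0 h PCS and 6, 52 and 29 counts at 6 h PCS. In CPM these were 3.66, 0.911 and 1.08 against 0.403, 2.34 and 1.75. The groups overlapped, as 0 h replicate 1 was the highest library, 6 h replicate 1 the lowest, and the other libraries at 0 h PCS lay below the other libraries at 6 h PCS. The log2 fold change of −0.31 had a 95% interval of −1.99 to 1.36 (adjusted p = 0.845 from edgeR). Without 0 h replicate 1 it was 0.59. The interval holds both a 2-fold rise and a 2-fold fall. Of 11 genes listed for Snail protein turnover, 1 was tested: Pak1, a kinase that phosphorylates Snai1, was at 7.92, 7.51 and 8.46 CPM and then at 13.8, 14.6 and 15.2 CPM, a rise short of the fold limit (log2 fold change 0.87, adjusted p = 0.0268 from edgeR, and 0.55 with adjusted p = 0.127 under library size scaling).

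Twist1 (ENSMUSG00000035799, chromosome 12, 33957671 to 33959831) was the scarcest member at 6 h PCS. It had 18, 8 and 23 counts at 0 h PCS and 6, 1 and 2 counts at 6 h PCS, which is 0.774, 0.291 and 0.993 CPM against 0.403, 0.045 and 0.12 CPM. The mean was lower at 6 h PCS, 0.189 ± 0.189 against 0.686 ± 0.359 CPM (SD, n = 3), but 6 h replicate 1 lay above 0 h replicate 2. It did not reach the low-count filter, and with no filter its log2 fold change was −1.88 (adjusted p = 0.467 from edgeR). It could be fitted in 4 of the fits without 1 library, where it ran from −1.41 without 6 h replicate 2 to −3.02 without 6 h replicate 1 (adjusted p = 0.556 and 0.22 from edgeR). Twist1 reached the limit of the filter in 2 libraries at 0 h PCS and in 0 at 6 h PCS. These 4 fits thus tested it because of the group in which it is higher, and no conclusion is drawn from their shared sign. Prrx1, a homeobox factor of mesenchymal cells, was a downregulated DEG, with 31.5, 20.7 and 33.01 CPM at 0 h PCS and 14.6, 13.8 and 11.9 CPM at 6 h PCS (log2 fold change −1.08, standard error 0.213, adjusted p = 0.0133 from edgeR). It was a DEG in 4 of the 6 fits without 1 library. Of 10 stromal markers 7 were identified, and they summed to 667 to 988 CPM at 0 h PCS and to 634 to 915 CPM at 6 h PCS, most of it from Col6a3 and Pdgfra. Pdgfra, a receptor gene of this list, fell by less than the fold limit (205.5, 182 and 248 CPM, then 122.5, 143 and 116.5 CPM, log2 fold change −0.73, adjusted p = 0.0179 from edgeR). Dcn, which encodes the matrix proteoglycan decorin, was at 6.11, 3.43 and 5.57 CPM and then at 2.28, 0.405 and 2.65 CPM (log2 fold change −1.52, adjusted p = 0.161 from edgeR). The libraries of both genes were separated by time point, and with library size scaling both were downregulated DEGs. The other direction was seen for Col5a1 (62.1 ± 7.13 and 79.0 ± 4.64 CPM, SD, n = 3, not overlapping) and, with overlapping groups, for the fitted changes of Col1a1, Col1a2 and Col6a3 (log2 2.54, 0.16 and 0.15), and the list median was 0.15. The part of stromal cells in the levels of Twist1, Prrx1 and Pdgfra was not tested.

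For 4 members an exon length was at hand, so that their levels could be ranked in CPM per kilobase of exon. At 0 h PCS the order was Sox9 (20.3 to 42.5), Zeb2 (10.1 to 11.03), Zfp703 (3.62 to 4.68) and Nfatc1 (0.576 to 1.10), with no overlap between neighbours. At 6 h PCS Sox9 (144 to 225) stood apart. Zeb2 (13.2 to 15.2) and Zfp703 (7.14 to 14.9) then overlapped, as did Zfp703 and Nfatc1 (3.56 to 9.67). The mean difference between the time points was 162 CPM per kilobase for Sox9, 7.91 for Zfp703, 5.03 for Nfatc1 and 3.40 for Zeb2.

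**Figure D3:**
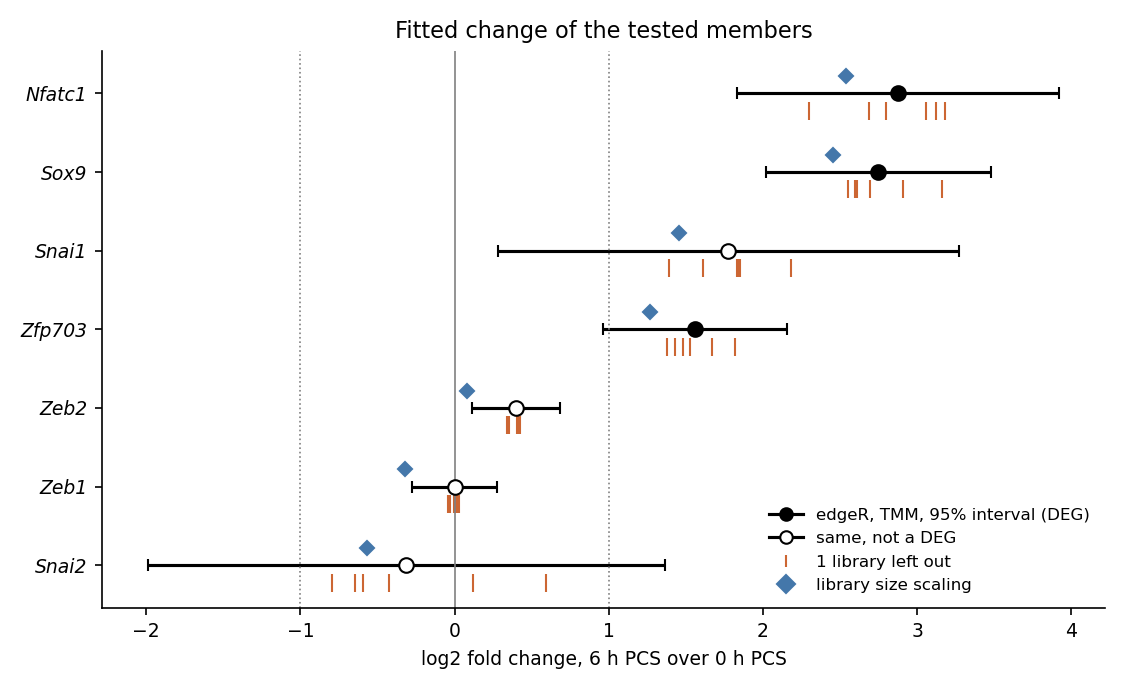
Log2 fold change of the 7 tested members at 6 h over 0 h PCS, with circles and 95% intervals from edgeR on the TMM scale (filled for DEGs), orange ticks for the 6 fits without 1 library and blue diamonds for library size scaling. Sox9, Nfatc1 and Zfp703 stay above a log2 fold change of 1 in every fit drawn, Zeb1 and Zeb2 have narrow intervals below it, and the ticks of Snai2 fall on both sides of 0.

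Further EMT regulators and the genes that mark the epithelial and mesenchymal state were counted from lists. Of 22 other EMT transcription factors 12 were tested, 1 was an upregulated and 1 a downregulated DEG, and the median log2 fold change was 0.53. The upregulated gene was Foxq1, a forkhead factor that represses E-cadherin, with 0, 10 and 5 counts at 0 h PCS, which is at most 0.364 CPM, and 6.78, 2.61 and 9.52 CPM at 6 h PCS (log2 fold change 4.94, standard error 0.846, adjusted p = 0.00803 from edgeR). It was a DEG in all 6 fits without 1 library, but it reached the low-count filter through the libraries at 6 h PCS alone. Runx1 was separated by time point (17.6, 5.87 and 46.3 CPM, then 92.6, 82.2 and 92.6 CPM) but not called (adjusted p = 0.219 from edgeR). Yap1, a transcriptional coactivator, rose by less than the fold limit, with a log2 fold change of 0.80 (adjusted p = 0.0171 from edgeR). With library size scaling it also missed the FDR limit (0.48, adjusted p = 0.0865 from edgeR).

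Of 16 genes of the epithelial state, 6 were tested, 3 were upregulated DEGs and 0 were downregulated DEGs. Dsp, which encodes the desmosomal plaque protein desmoplakin, was at 2.67, 1.35 and 3.32 CPM and then at 26.8, 35.0 and 21.5 CPM (log2 fold change 3.51, adjusted p = 0.000411 from edgeR). The tight junction genes Cldn1 and Cldn4 were DEGs as well, with log2 fold changes of 1.59 and 3.79. Of the 6 fits without 1 library, Dsp was a DEG in 6, Cldn1 in 1 and Cldn4 in 0, and Cldn1 was not called with library size scaling. Cldn4 was scarce, with 4, 0 and 5 counts at 0 h PCS and 27, 34 and 35 counts at 6 h PCS, and it was tested because of the group in which it is higher. Of the corneal epithelium markers, Krt12 was at 2.97 ± 3.54 and 55.4 ± 10.8 CPM and Krt5 at 3.44 ± 3.82 and 31.5 ± 6.71 CPM (SD, n = 3), both higher at 6 h PCS with no overlap between the groups, and Aldh3a1 was lower (436 ± 77.3 and 279 ± 60.1 CPM, SD, n = 3). Their part in the levels of Dsp, the claudin genes and Elf3 was not tested. Krt19, a keratin gene, was at 43.4 ± 1.08 and 44.8 ± 9.52 CPM (SD, n = 3). Among 14 factors that oppose EMT, 2 were tested. Elf3, an epithelial ETS factor, was an upregulated DEG (5.21, 4.77 and 5.05 CPM, then 10.001, 11.3 and 19.9 CPM, adjusted p = 0.0152 from edgeR) and remained one in 3 of the 6 fits without 1 library, and Grhl1 was not called (log2 fold change 0.75, adjusted p = 0.171).

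Of 19 genes of the mesenchymal state, 11 were tested, 2 were upregulated DEGs and 0 were downregulated DEGs, with a median log2 fold change of 0.73. Tagln, an actin-binding protein gene of smooth muscle, was at 5.46, 3.10 and 3.41 CPM and then at 21.9, 62.6 and 94.4 CPM (log2 fold change 3.90, adjusted p = 0.0156 from edgeR), and it was a DEG in 4 of the 6 fits without 1 library. The smooth muscle marker Myh11 was at 21.0, 13.6 and 8.16 CPM and then at 25.1, 36.3 and 169 CPM. Tagln, Myh11 and the pigment marker sum had the same order of libraries at 6 h PCS, and the part of such cells in the Tagln level was not tested. Itga5, the fibronectin receptor subunit, was at 29.0, 18.5 and 30.6 CPM and then at 84.0, 147 and 129.6 CPM (log2 fold change 2.21, adjusted p = 0.0011 from edgeR). Ccn2, an abundant matricellular gene, overlapped between the time points (log2 fold change 1.05, adjusted p = 0.132 from edgeR). Acta2, the smooth muscle actin gene that marks myofibroblasts, was at 121, 109.9 and 83.5 CPM and then at 57.7, 124.8 and 284.9 CPM, with overlapping groups (log2 fold change 0.57, adjusted p = 0.632 from edgeR). The 2 DEGs of 11 lie near the 11.6% called upward among tested genes with a symbol. Over the 6 fits without 1 library the epithelial list held 1 to 2 DEGs and the mesenchymal list 1 to 3.

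**Figure D4:**
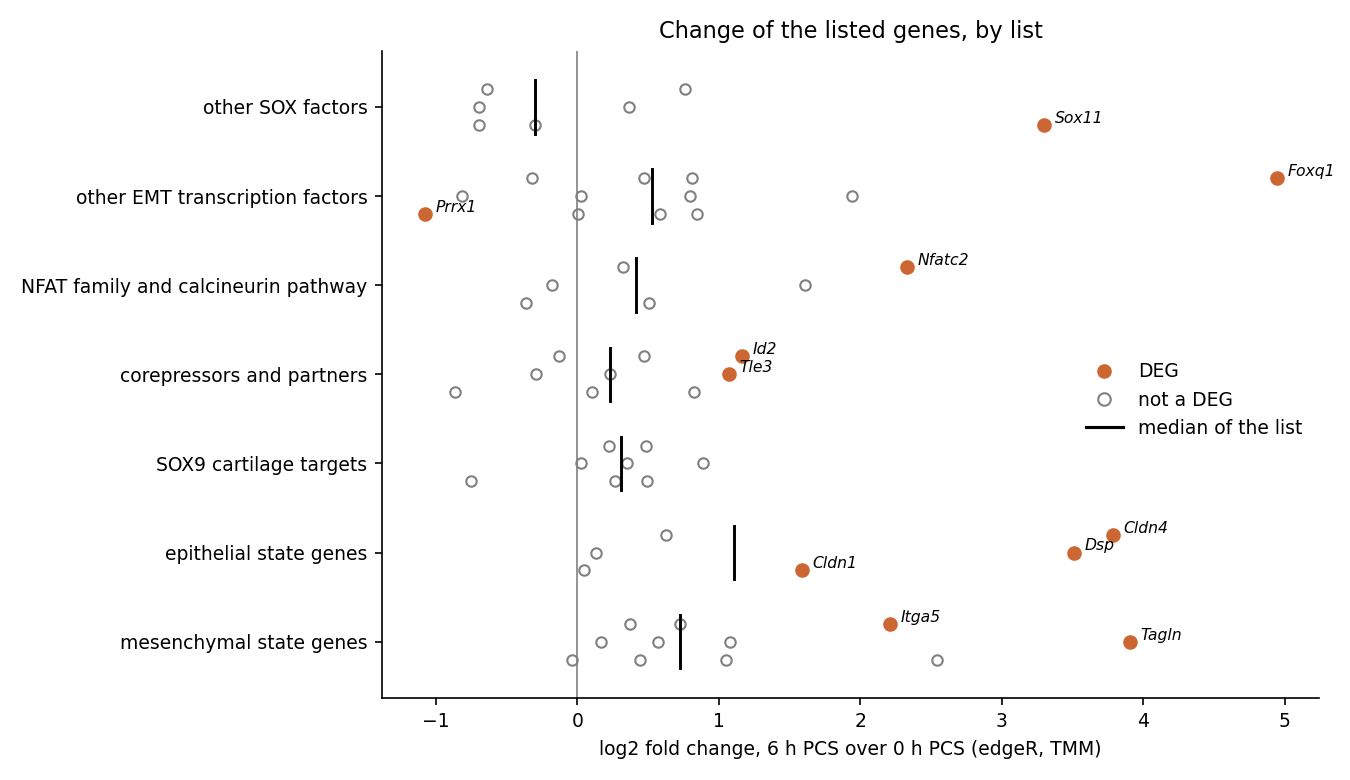
Log2 fold change (6 h over 0 h PCS, edgeR on the TMM scale) of every tested gene in 7 lists, with DEGs filled and named and a black bar at each list's median. DEGs appear in the epithelial list (Dsp, Cldn4, Cldn1) and in the mesenchymal list (Tagln, Itga5), and the list of SOX9 cartilage targets holds 0 DEGs.

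The profiles most like that of Sox9 were sought among 6039 tested genes with a symbol and a mean of at least 1 CPM, by Pearson correlation of log2 CPM over the 6 libraries. These were Spry2 (r = 0.997), Ccn1 (0.996), 2610306O10Rik (0.996), Dusp7 (0.995) and Ier3 (0.994), and all 5 were upregulated DEGs. Like Sox9, they had their highest level of the 0 h PCS libraries in replicate 1: Spry2, which encodes a Sprouty inhibitor of receptor tyrosine kinase signaling, was at 30.9, 22.7 and 18.9 CPM at 0 h PCS and at 81.0, 94.3 and 109 CPM at 6 h PCS. Ccn1, a matricellular gene, went from 138, 67.1 and 65.6 CPM to 755, 784 and 1119 CPM. For Nfatc1 the closest were Fem1c (r = 0.996), Mzt2 (0.996), Panx1 (0.996), Tgfb2 (0.995) and Ipo7 (0.995), with 6 h replicate 3 highest in each. Panx1, a membrane channel gene, was at 1.12, 1.20 and 1.55 CPM and then at 3.96, 3.597 and 6.45 CPM. The 6 points form 2 groups and come from the same libraries and scaling, so these values describe a shared profile in this experiment. The genes were picked for this likeness, so their rise and their highest replicates follow from the choice.

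**Figure D5:**
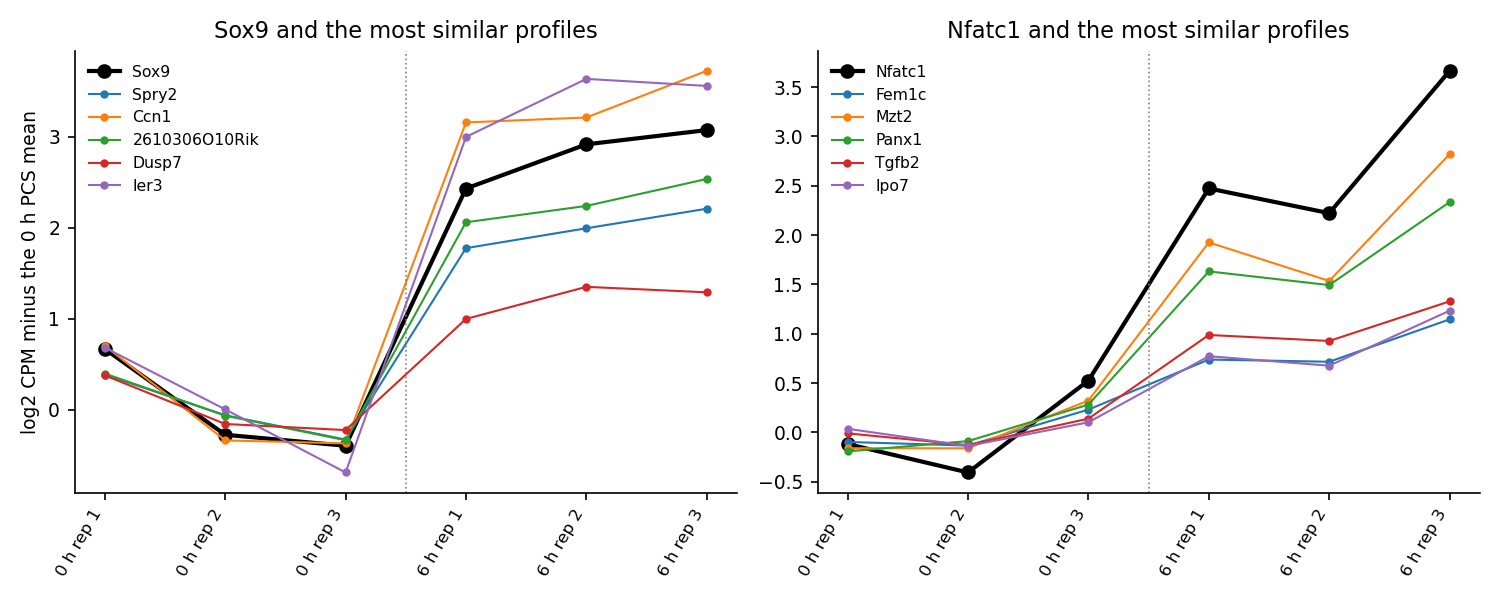
Log2 CPM of Sox9 (left) and Nfatc1 (right) and of the 5 genes with the most similar profiles, each minus its own mean at 0 h PCS; lines join the points of a gene and the order of replicates has no meaning. Among the 0 h libraries the Sox9 set is highest in replicate 1, and 6 h replicate 3 is the highest library for every gene of the Nfatc1 set and for Sox9, Spry2, Ccn1 and 2610306O10Rik.

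Markers of other cells moved between libraries as follows. The 6 identified retina and glia markers of 8 summed to 536 to 900.1 CPM at 0 h PCS and to 1005 to 1676 CPM at 6 h PCS, in the same direction as Sox9, which glial cells of the retina also express. Most of that sum was Glul (426 ± 147 and 1001 ± 405 CPM, SD, n = 3), and the means of Gfap (49.8 and 111 CPM), Slc1a3 (46.2 and 60.4), Rlbp1 (16.2 and 22.2) and Opn1sw (6.63 and 12.6) were also higher at 6 h PCS, while that of Aqp4 (150.3 and 124) was lower. Of the 6, 0 were DEGs by edgeR's quasi-likelihood test (1 with an unadjusted p under 0.05, and 1 DEG by DESeq2 and by edgeR's exact test). Of the 3 identified corneal epithelium markers of 7, Krt12 had 7.01, 0.437 and 1.47 CPM and then 56.0, 65.8 and 44.2 CPM (adjusted p = 0.0792 from edgeR), and Krt5 had 7.70, 0.328 and 2.29 CPM and then 31.2, 38.4 and 24.9 CPM (adjusted p = 0.146 from edgeR). By DESeq2 and by edgeR's exact test 2 of the 3 were DEGs, against 0 by the quasi-likelihood test, where all 3 had an unadjusted p under 0.05. Aldh3a1, which carried the sum of the 3, had 480.5, 346.9 and 481 CPM and then 230.8, 346.6 and 260.9 CPM, all lower at 6 h PCS (log2 fold change −0.64, adjusted p = 0.0725 from edgeR). That sum was 348 to 495 and 318 to 451 CPM, and it did not show the rise of Krt12 and Krt5. Which cells held the Aldh3a1 RNA was not tested. Leukocyte markers, 6 of 12, summed to 13.5 to 22.6 and 16.8 to 32.3 CPM, with 1 upregulated DEG, Cd68. Endothelial markers, 4 of 7, summed to 4.10 to 26.3 and 20.0 to 36.9 CPM, a sum carried by Kdr. Pecam1 (1.16, 0.692 and 0.518 CPM, then 2.89, 1.75 and 4.76 CPM) and Cdh5 (0.387, 0.182 and 0.0863 CPM, then 0.94, 1.03 and 4.76 CPM) were separated by time point and highest in 6 h replicate 3. They were not called in the quasi-likelihood test (adjusted p = 0.0644 and 0.0529 from edgeR), whereas 2 of the 4 endothelial markers were DEGs by DESeq2 and by the exact test, and Cdh5 was a DEG with library size scaling. Cdh5 was scarce, with 9, 5 and 2 counts at 0 h PCS and 14, 23 and 79 counts at 6 h PCS. It was tested because of the group in which it is higher. Smooth muscle and pericyte markers, 3 of 6, summed to 93.6 to 144 and 85.2 to 457 CPM. Lens fiber markers, 2 of 12, summed to 1215 to 1712 and 1163 to 1592 CPM, and the 1 identified Schwann and neural crest marker of 6, Erbb3, was at 0.774 to 3.19 and 2.05 to 2.35 CPM. None of the identified markers was at 0 in all libraries. The part of these cells in the levels of Sox9, Zfp703 and the other members was not tested.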

How the data were processed

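RNAseq was performed on 6 libraries, 3 at 0 h PCS and 3 at 6 h PCS. Read pairs were aligned by the authors with Hisat2 (GRCm38) and assigned to Ensembl genes by HTSeq (union mode). The deposited values are raw counts, without normalization, and the strand setting of the counting is not given in the sources used here. Reads that Zeb1, Zeb2 or Nfatc1 share with the noncoding genes annotated within their bounds (Gm10125, Zeb2os, Mir5129 and Gm52342) may therefore be split or dropped. The 5 summary rows of HTSeq were left out. They held pairs on no gene (11.4% to 18.7% of pairs), pairs not aligned (34.2% to 44.1%) and ambiguous or multiply aligned pairs, and 33.6% to 41.2% of pairs were on genes.

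Counts were fitted with edgeR 4.0.16 (limma 3.58.1, R 4.3.3; plots and ratios in Python 3.11.15) as the methods state for this contrast: filterByExpr, TMM, robust dispersions and the quasi-likelihood F-test in its earlier form, with limits of 0.05 for the FDR and 2 for the fold change. The standard error is the absolute log2 fold change over the square root of F. CPM are counts over the TMM effective library size of the fit. Pools were treated as unpaired, since no label ties a 0 h pool to a 6 h pool. Replicates of a group differed by more than sampling noise.

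Members were matched by Ensembl identifier. Symbols of other genes and exon lengths came from the supplementary tables, and coordinates from RefSeq on GRCm38.p6. Of 229 listed genes, 102 were matched and tested, and 3 further listed genes are not reported here. Members and lists were chosen with earlier results of these data known. Named were the members, every DEG of a list, the 2 most abundant tested genes of a list, and the 5 profiles most like Sox9 and Nfatc1. Marker lists are given by their sums, and Ajuba and the marker genes outside this rule, such as Krt5, Dcn and Cdh5, were chosen after their values were seen. Alternatives were DESeq2 1.42.0, edgeR's exact test, the edgeR 4 method, no robust estimation, library size scaling, DESeq2 size factors, no low-count filter, at least 10 counts in at least 3 samples, glmTreat, a replicate block, and leaving out each library. Intervals reflect the spread between pools of PCR-amplified libraries without molecular identifiers.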

Additional observations from a re-analysis of the deposited data

How the results depend on the processing

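The 3 calls among the members were kept in number under DESeq2, the exact test, the edgeR 4 method, no robust estimation, both other scalings and both other filters. With glmTreat, 1 member and 221 of all tested genes were called, and DESeq2 called 1391 of all genes (900 in the edgeR fit). With library size scaling 572 genes were called upward and 627 downward, against 762 and 138 with TMM. Over the 6 fits without 1 library, 2 to 3 members, 553 to 877 of all genes and 8 to 16 of the listed genes (14 with all libraries) were DEGs. The lowest number for all genes came without 0 h replicate 1 and for the listed genes without 0 h replicate 3. Without both 0 h replicate 1 and 6 h replicate 3, added after the values were seen, 2 members and 400 genes were DEGs, and the log2 fold change of Snai2 was 0.48. The sign of Zeb1 turned with DESeq2 (0.0048), its size factors (0.0091) and the block (0.00032), and over the fits without 1 library it ran from −0.041 to 0.029, while Snai2 ran from −0.80 to 0.59, with 0.12 without 6 h replicate 1. The cause of these changes was not tested.

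Same-numbered libraries of the time points did not deviate together in every case (correlations of −0.011, 0.303 and 0.176 over 14740 genes). Libraries of different numbers ran from −0.263 (0 h replicate 3 with 6 h replicate 2) to 0.043 (0 h replicate 1 with 6 h replicate 3). Replicates 2 and 3 thus matched best with their own number, and replicate 1 did not. Whether same-numbered pools shared mice is not given, and the main fit left the pools unpaired. With the replicate block, 1050 genes, 3 members and 15 listed genes were DEGs, 1 of them in the mesenchymal list (2 without the block). With the block Nfatc1 (2.79) lay below Sox9 (2.82), the reverse of their order without it. Depth limits Snai1, Snai2 and Twist1, which had at most 85 counts in any library.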
